A study of Homo sapiens with 3 samples.

Results

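Neighbouring H3K27ac regions of LNCaP cells were joined into clusters where at most 12.5 kb lay between them, and the clusters were ranked by the summed width of their regions. The results below concern the 355 clusters of ranks 16 to 370, out of 37027 on chromosomes 1 to 22, X and Y. They follow the 15 clusters of greatest summed width and end 1 in 100 clusters down the ranking. Together they held 4313 of the 71077 H3K27ac regions and 14.2 Mb of H3K27ac, which was 9.86% of the H3K27ac length. These clusters were chosen by the widths of the H3K27ac regions, so size and shape are given as a description. The rule itself does not use the H3K4me1 list, but it was set with earlier results of both lists known. Each mark came from 1 library, so no replicate spread exists, nothing was tested, and the values describe these lists. The order of the ranks rests on called width and not on read signal, which the lists do not hold, and the depth behind them is unknown.

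LNCaP is an androgen-responsive line grown from a metastasis of a human prostate carcinoma. The series holds 1 ChIP-seq library of H3K27ac, 1 of H3K4me1 and 1 input library without antibody from these cells, with no treatment in the labels. The input and the other cell lines that the series design names were not analysed here. Region lists carry no RNA, so the cell line label could not be checked against markers.

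H3K27ac, the acetylation of histone H3 at lysine 27 laid down by the acetyltransferases p300 and CBP, is found at active enhancers and promoters. H3K4me1, the monomethylation of lysine 4 written at enhancers mainly by KMT2C and KMT2D, marks enhancers whether they are active or only primed and gives way to trimethylation at the centre of active promoters. Long stretches of closely spaced active elements, often called stretch or super-enhancers, are commonly found by joining neighbouring regions in this way and are known for lying near genes of cell identity. Long acetylated stretches can also lie over the bodies of highly transcribed genes. All positions are hg19, counted from 1. No annotation of that build was used here, so genes, exons and introns are not named.

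The clusters were long, and only about as much of their span was called H3K27ac as was left between the regions. The span had a median of 72.0 kb (quartiles 57.9 and 92.0 kb) and ran from 28.4 to 212 kb. Summed region width ran from 25.95 kb to 108 kb with a median of 34.4 kb, and the number of regions from 2 to 54 with a median of 11. H3K27ac covered a median of 50.5% of the span (quartiles 42.5% and 62.0%). In 41 clusters a single region held more than 50% of the H3K27ac length, and 173 clusters had at least 1 region of 10 kb or more. Longer clusters were made mainly of more regions. Across the 355 clusters, Spearman's rho of the span with the number of regions was 0.78, and with the covered share -0.45, both from the same list.

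The first members by rank differed widely in build. Rank 16, chr16:89365701-89576650, held 108 kb of H3K27ac in 33 regions over 211 kb, and its widest region measured 8.85 kb. Rank 18, chr5:106801401-107013600, had the widest span of all members, 212 kb, with 97.2 kb in 41 regions. Rank 19, chr1:144964451-145118250, had the most regions, 54, over 154 kb. In contrast, rank 21, chr15:89630151-89723850, was nearly continuous, with 96.8% of its 93.7 kb covered and a single region of 67.9 kb, and rank 25, chr22:46430351-46526150, held 1 region of 82.0 kb among 4. The rest of the first 10 lay between these builds. They were rank 17 at chr2:168933351-169115050 with 105 kb in 37 regions, rank 20 at chr5:79423601-79603650 with 90.95 kb in 26 regions, rank 22 at chr3:71051201-71214250 with 90.5 kb in 19 regions, rank 23 at chr2:189143101-189265800 with 88.7 kb in 19 regions, and rank 24 at chr18:55843501-55989650 with 87.5 kb in 24 regions.

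The extremes of covered share show how loosely or tightly a cluster can be built under the same rule. Rank 249, chr3:120734201-120879550, spread 29 regions of at most 2.60 kb over 145 kb and was covered over 20.8%. The next loosest were rank 309, chr5:107236451-107339650, at 27.1% and rank 235, chr4:190557901-190671500, at 27.4%. After rank 21 the tightest were rank 313, chr1:85285651-85314750, with 95.2% in 3 regions, and rank 65, chr11:34640751-34699200, with 94.5% in 4. In all, 6 members were covered over less than 30% of their span and 7 over more than 90%.

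At the ends of the ranking the values ran on without a step. Rank 15, just above, had 110 kb of H3K27ac, against 108 kb at rank 16. Ranks 370, 371 and 372 all had 25.95 kb, and only the tie rule, by chromosome and start, put rank 370 at chr1:192952251-193036450 inside. Above it stood rank 366 at chr13:50546351-50613000 with 26.1 kb, followed by rank 367 at chr1:120306301-120334700, rank 368 at chr3:175095801-175163400 and rank 369 at chr21:47898151-47946900 with 26.05 kb each.

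Most of the H3K27ac length of these clusters also lay in H3K4me1 regions, but the part that did differed widely from cluster to cluster. The share of H3K27ac length inside H3K4me1 regions, called the H3K4me1 share below, had a median of 84.3% (quartiles 66.9% and 93.7%) and ran from 18.9% to 100%. Pooled over all members it was 76.8%. A share under 50% was found in 36 members (10.1%, exact Clopper-Pearson 95% interval 7.20% to 13.8%) and a share over 90% in 130 (36.6%, 31.6% to 41.9%), with 189 between. These intervals treat clusters as independent and cover counting error only. Over all 37027 clusters, most of them single narrow regions, 29.8% had a share under 50% and 34.4% over 90%. Over the 14641 clusters of several regions the corresponding values were 22% and 30.3%. Low shares were thus less common among the members than in either background, and high shares more common, though only slightly against all clusters. Whether cluster size accounts for this was not tested. Members had a median of 11 regions, and the clusters of several regions ranked below them had 2. Of the 22386 clusters of 1 region, 4801 had no H3K27ac in H3K4me1 regions and 6608 had all of it there. By contrast, of the 355 clusters next in rank, with a median of 7 regions, 5.35% lay under 50% and 41.1% over 90%.

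**Figure D1:**
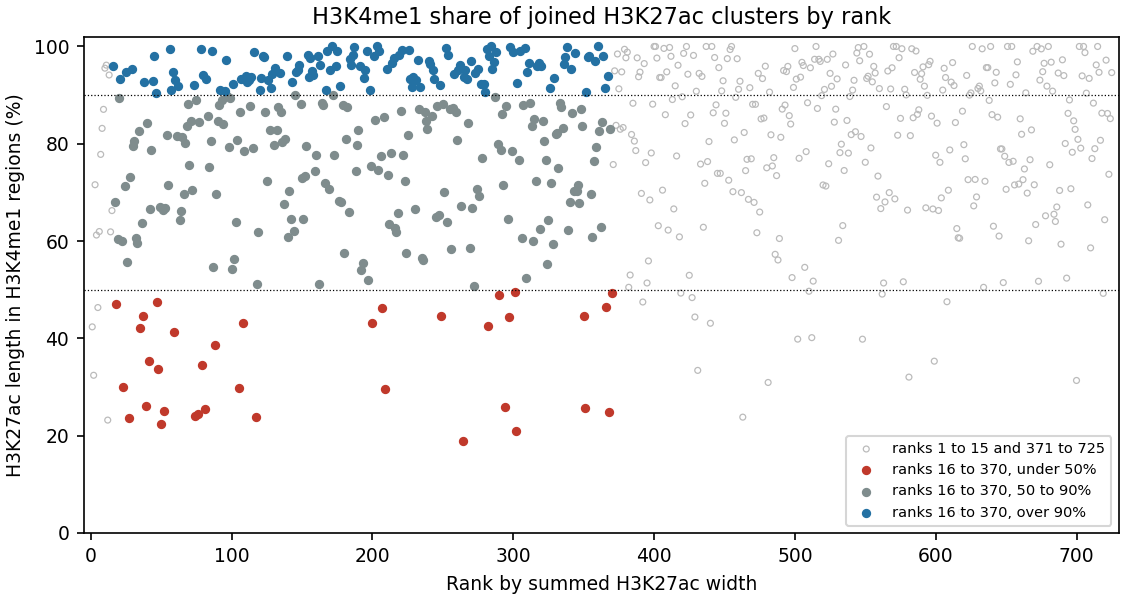
Each point is 1 joined H3K27ac cluster, by its rank by summed H3K27ac width (x axis) and the percentage of its H3K27ac length in H3K4me1 regions (y axis). Filled points are ranks 16 to 370, coloured by class, open points are ranks 1 to 15 and 371 to 725, and dotted lines mark 50% and 90%. The 36 low members are found from the first to the last ranks, and 10 of them lie among ranks 16 to 50.

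Read along the ranking, the median share was lowest in the first ranks. From rank 51 to rank 725 it lay between 82.7% and 87.8% with no steady trend. The 15 clusters above the members had a median share of 66.3%, and 4 of them lay under 50%. Ranks 16 to 50 had a median of 67.0% with 10 of 35 clusters under 50% and 8 over 90%. The median was then 82.7% in ranks 51 to 100, 87.8% in ranks 101 to 200, 86.6% in ranks 201 to 300 and 83.2% in ranks 301 to 370. Of the 355 clusters next in rank, 371 to 725, 19 lay under 50% (5.35%, 3.25% to 8.23%) and 146 over 90%, with a median of 85.9%. All 14271 clusters of several regions below rank 370 had a median of 76.2%. The difference in low shares between members and next ranks came mainly from the band of 20% to 30%, which held 15 members and 1 cluster of ranks 371 to 725. As 5 neighbouring members of chromosome 3, described below, gave 4 of the 15, these counts are not independent.

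**Figure D2:**
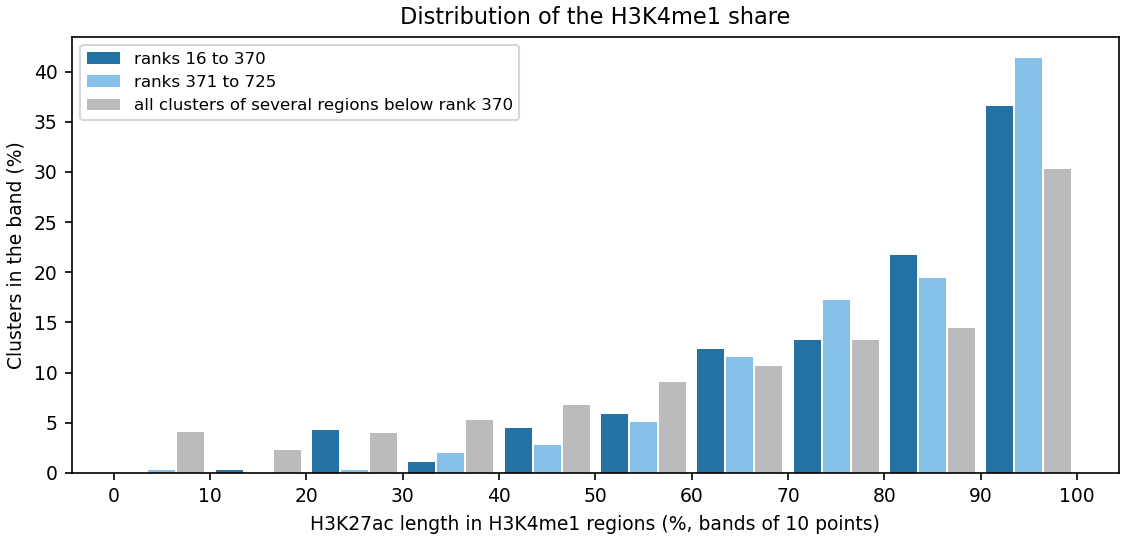
Bars give the percentage of clusters (y axis) whose H3K4me1 share of the H3K27ac length falls in each band of 10 percentage points (x axis), for ranks 16 to 370, ranks 371 to 725 and all clusters of several regions below rank 370, the last including the second. The top band is the tallest in each set, and the band of 20% to 30% holds 4.23% of ranks 16 to 370 against 0.282% of ranks 371 to 725.

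The lowest shares were often found in groups of neighbouring clusters. Members and clusters ranked above them, at most 500 kb apart, were counted as 1 locus, a distance chosen after the data were seen. The 36 low members fell into 26 loci, and 7 loci with at least 2 low members each held 17 of them. The largest was chr3:174650601-175282600, 632 kb long, where 5 members with 204 kb of H3K27ac had a pooled share of 27.6% and none exceeded 34.4%. They were chr3:174650601-174700150 at 23.9%, chr3:174777301-174882050 at 23.9%, chr3:175012951-175075600 at 29.5%, chr3:175095801-175163400 at 24.8% and chr3:175177001-175282600 at 34.4%. No other locus held as many members.

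A second locus of chromosome 3, chr3:120377551-120879550, mixed low and intermediate values. Here chr3:120610851-120666250 had a share of 25.8% and the loosely built rank 249 had 44.5%, while chr3:120377551-120426850 had 65.8%. On chromosome 5, chr5:106801401-107692350 held rank 18 at 47.0%, rank 309 at 52.3% and rank 27, chr5:107568651-107692350, at 23.5%. This last cluster contained the longest stretch of H3K27ac without H3K4me1 of any member, 13.2 kb.

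Low members also flanked some of the clusters ranked above the members. On chromosome 21, chr21:17441001-17508150 with 29.8% and chr21:17529001-17628450 with 35.4% lay next to the longest cluster of the whole list, to which the nearer of them came within 14.05 kb. On chromosome 12, chr12:81753451-81828000 with 22.4% lay 13.8 kb from the cluster of rank 12, and chr12:81271351-81336250 with 43.2% stood farther off in the same locus. Both distances were little over the 12.5 kb used for joining.

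The other pairs of low members lay on chromosomes 13 and 14. At chr13:50546351-50727450, chr13:50629951-50727450 had 25.1% and rank 366 had 46.4%, with 16.95 kb between them. At chr14:37879201-38148650, chr14:37879201-37936000 had 21.0%, the second lowest of all members, and chr14:38012551-38148650 had 44.6%.

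The remaining 19 low members stood in loci with no second low member. The lowest share of all, 18.9%, was on chromosome Y at chrY:14772851-14814300, with 29.7 kb of H3K27ac in 6 regions. Both members of chromosome X were low, chrX:11358551-11500200 with 38.7% and chrX:43513451-43570300 with 46.3%. All other H3K27ac was low on these chromosomes too, with a pooled share of 29.9% on Y and 41.5% on X. The members of X had a pooled share of 41.8%, so they were at the level of their chromosome. Chromosome 2 had chr2:182754001-182809300 with 25.5%, chr2:189143101-189265800 with 29.9% and chr2:215570701-215692700 with 33.7%. Rank 81 consisted of 1 region of 49.8 kb and 1 short region, so its low share belonged to a single wide acetylated stretch. Chromosome 1 had chr1:84597251-84666700 with 24.5%, chr1:78955501-79016650 with 42.6% and rank 370 with 49.3%. On chromosome 11 the low members were chr11:89357701-89411300 with 25.8%, chr11:94875701-94989100 with 26.1% and chr11:49164151-49231550 with 41.3%. Most of the rest lay closer to 50%. They were chr5:70700751-70880350 with 42.1%, chr4:156574501-156642300 with 43.1%, chr15:30068301-30128500 with 44.3%, chr3:9428201-9468950 with 44.7%, chr7:89782101-89881500 with 47.4%, chr4:24542101-24605300 with 48.9% and chr12:30839901-30909350 with 49.5%. The last was the nearest below 50%, and the nearest above was chr17:57746551-57813950 with 50.8%.

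Low members did not lack H3K4me1 regions, but the regions they had were narrow. A low member met a median of 14.5 H3K4me1 regions, or 1.86 per 10 kb of span, against 1.85 per 10 kb in members over 90% and 2.54 in those between. The median H3K4me1 region was 1050 bp wide in low members (quartiles 800 and 1450 bp), the same median as over the whole H3K4me1 list, and 2150 bp wide in high members (1050 and 4800 bp). The deposited score, a value of unstated meaning that is lower in wider regions, was 0.003 or less in 26.1% of the H3K4me1 regions of low members, 59.5% of those of high members and 27.8% of the whole list. H3K4me1 regions of low members were thus close to the list at large in median width and in the part scored 0.003 or less. They were not the same in every value. Scores below 0.05 were found in 81.3% of them and 75.9% of the whole list, whose width quartiles were 750 and 1650 bp.

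**Figure D3:**
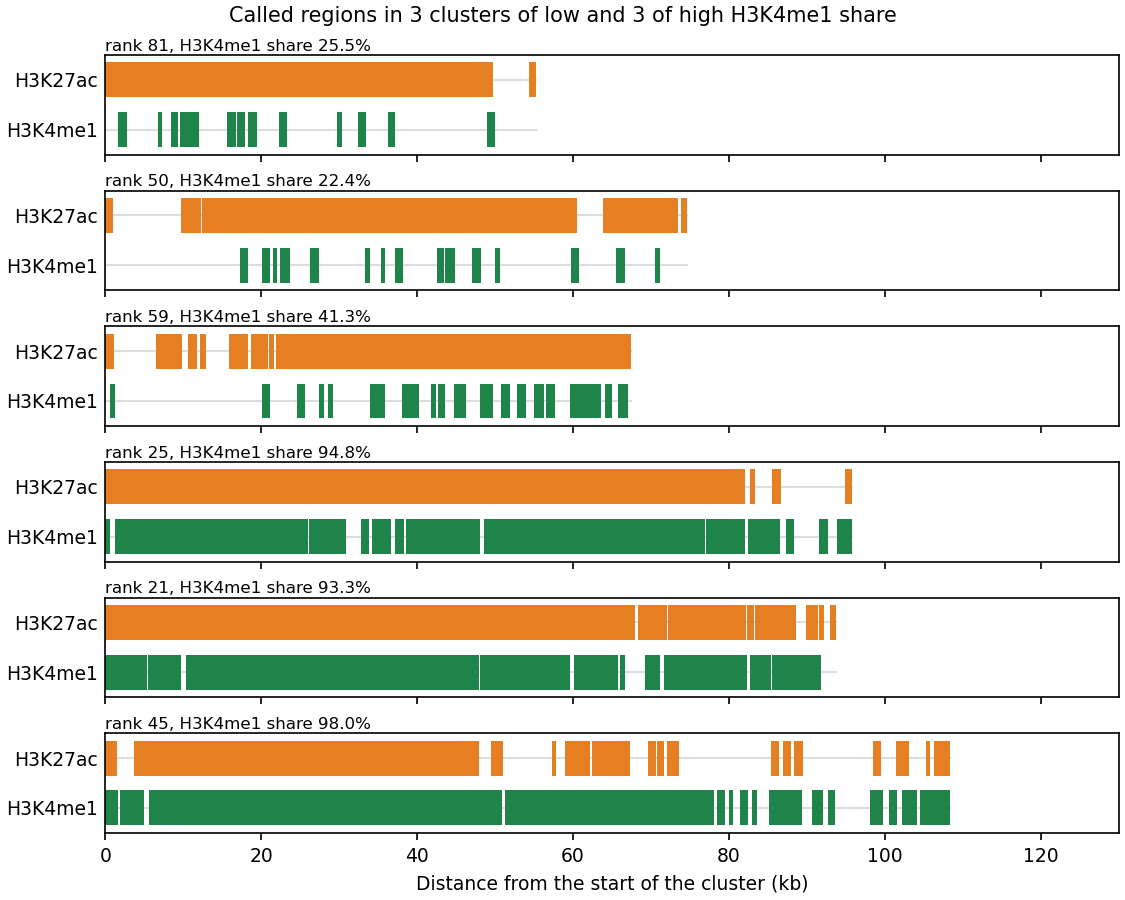
Called regions of H3K27ac (upper row of each panel) and H3K4me1 (lower row) are drawn to scale along the distance from the start of the cluster in kb (x axis) for the low members with the widest single H3K27ac regions, ranks 81, 50 and 59, and the high members with the widest, ranks 25, 21 and 45. In the low clusters short H3K4me1 regions lie scattered under wide H3K27ac regions, and in the high clusters H3K4me1 regions are wide and reach across some of the gaps in H3K27ac.

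Taken over all regions of a class, H3K27ac of the low members was divided less evenly. More of its length lay in very wide regions and more of its regions were short. The widest region of a low member had a median of 14.3 kb, against 8.95 kb in the middle class and 10.0 kb in the high class, and the H3K27ac summed to a median of 43.8 kb against 34.4 and 34.1 kb. Regions of 10 kb or more made up 42.5% of the H3K27ac length of low members and 28.2% of that of high members. Pooled over regions, the median width was 1500 bp in low members, 1900 bp in the middle class and 2300 bp in high members. Members with many regions weigh most in these values. The median region width of a member had a median of 2025 bp in low, 2050 bp in middle and 2437.5 bp in high members, so low and middle members were alike. Regions under 1 kb were 32.2% of the regions of low members and 17.0% of those of high members. The longest H3K27ac stretch free of H3K4me1 had a median of 5.05 kb in low members, 1.80 kb in the middle class and 0.70 kb in high members, an order that the classes, cut on the same share, largely set. Such a stretch of 10 kb or more occurred in 4 low members and 1 of the middle class, and no high member had that much H3K27ac free of H3K4me1. After the 13.2 kb of rank 27, the longest in low members were 11.75 kb in rank 81, 10.95 kb in rank 23 and 10.05 kb in rank 52. The span did not order the classes, with medians of 68.6, 74.6 and 69.2 kb for low, middle and high members.

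The classes also differed in H3K4me1 outside the H3K27ac regions, which the H3K4me1 share does not count. Of the length between H3K27ac regions inside a member, H3K4me1 covered a median of 7.54% in low members, 27.8% in the middle class and 46.8% in high members. It covered less than 10% of this length in 21 of 36 low members and in 2 of 130 high ones. Across the 355 members, Spearman's rho of the coverage on and between H3K27ac regions was 0.73, as a description over clusters that share the same H3K4me1 library. An H3K4me1 region can run across the edge of an H3K27ac region and then counts in both coverages. The order of the classes between regions and this rho are therefore not independent of the share on which the classes were cut. In the 50 kb on either side of a member, H3K4me1 covered a median of 8.55%, 19.1% and 25.9% in the 3 classes, while H3K27ac covered similar medians of 9.73%, 8.70% and 8.65%. Low members thus lay in surroundings with as much H3K27ac and less H3K4me1. The same held for other H3K27ac within 500 kb, of which H3K4me1 regions covered a median of 46.3% around low members, 77.3% around the middle class and 87.0% around high members. It was under 50% around 20 low members and around no high member. Other members were not left out of these surroundings. As 17 of the 36 low members lay in loci with at least 2 low members, the class was partly compared with itself. The low members farthest below their surroundings were rank 39, with a share of 26.1% where 72.5% of the nearby H3K27ac length carried H3K4me1, rank 297 with 44.3% and 85.9%, and rank 350 with 44.7% and 85.6%.

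**Figure D4:**
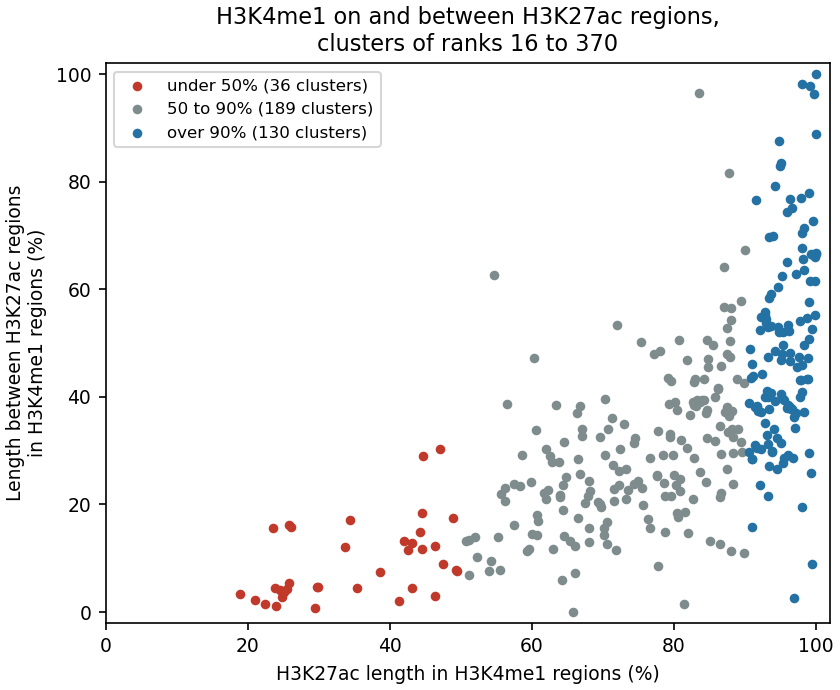
Each point is 1 of the 355 clusters of ranks 16 to 370, placed by the percentage of its H3K27ac length in H3K4me1 regions (x axis) and the percentage of the length between its H3K27ac regions in H3K4me1 regions (y axis), coloured by class. Points of the low class stay at or below 30.3% between regions, while the high class runs from 2.56% to 100%.

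High members, by the cut of the class, had over 90% of the H3K27ac length in H3K4me1 regions, with a median of 95.4%. They met a median of 13 separate H3K4me1 regions, which covered a median of 46.8% of the length between H3K27ac regions. In 4 high members H3K4me1 took in the whole H3K27ac length, at chr1:154972001-155067400, chr17:17710501-17747100, chr9:137244351-137280050 and chr14:77469701-77509750. In rank 284 the gaps between the 3 H3K27ac regions were covered as well, so that H3K4me1 covered the whole span of 35.7 kb. Another 11 had the next highest shares, from 99.9% down to 99.1%. They were chr12:6290601-6351750, chr10:71075751-71147750, chr9:139916401-139983500, chr5:172259351-172297400, chr1:65612251-65649450, chr1:10688201-10802300, chr17:73510951-73585750, chr10:42354651-42418900, chr1:43379601-43439800, chr17:46002101-46080850 and chrY:13447801-13490650. Rank 56, with 59.8 kb of H3K27ac and a share of 99.6%, was the largest of these 15. In all, 75 members had a share over 95% and 18 over 99%.

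Among the other high members, size and H3K4me1 coverage went together in no fixed way. Rank 16, the largest member, had a share of 96.0% and 65.1% of its gaps in H3K4me1. Rank 29, chr11:113871651-114070750, had 81.8 kb of H3K27ac with a share of 95.4%, although only 62.2% of the H3K27ac within 500 kb was in H3K4me1 regions. Rank 45, chr19:13101501-13209800, had 98.0% over 67.9 kb, of which 1 region took 44.2 kb. Rank 46, chr19:51336401-51426050, was the lowest of the high class at 90.5%, and the nearest below it, chr5:180209501-180262150, had 89.9%. The other large high members were rank 21 with 93.3%, rank 25 with 94.8%, chr22:43316801-43422100 with 92.8%, chr1:36687801-36772800 with 92.9%, chr14:61944551-62035250 with 91.0% and chr11:93201301-93280500 with 94.7%. In order of rank there followed chr12:7033201-7127450 with 93.2%, chr17:8020651-8166400 with 91.9%, chr1:207961701-208043350 with 92.1%, chr19:33487201-33556350 with 94.2% and chr22:36720451-36814150 with 93.3%. H3K4me1 covered more sequence than H3K27ac inside 126 of the 130 high members, in 97 of the 189 middle members and in none of the 36 low ones.

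A further 99 high members, with shares from 90.6% to 99.1% and a median of 32.6 kb of H3K27ac, were spread over 20 chromosomes, and rank 367 at 93.9% completes the class. The most lay on chromosomes 1 and 17, with 12 each. On chromosome 1 they had shares from 90.8% to 98.99% and lay at chr1:1758351-1851100, chr1:9571551-9668100, chr1:10820651-10876300, chr1:33196551-33258100, chr1:37914551-37981650, chr1:39568551-39658700, chr1:68016901-68065750, chr1:155144401-155248100, chr1:167630301-167734200, chr1:201975001-202034500, chr1:228268601-228331200 and chr1:235091201-235154150. On chromosome 17, with shares from 91.5% to 98.8%, they lay at chr17:7117451-7169450, chr17:7736351-7767500, chr17:17583851-17656900, chr17:27045501-27091600, chr17:27223651-27280600, chr17:40668951-40780800, chr17:46792651-46839400, chr17:55151401-55199900, chr17:72963701-73045250, chr17:77738001-77827100, chr17:80189101-80257200 and chr17:80476051-80552400. Chromosomes 11 and 19 had 9 each. Those of chromosome 11 ran from 90.6% to 98.9% and lay at chr11:7531701-7635250, chr11:59521401-59579050, chr11:62309701-62391050, chr11:63570801-63656800, chr11:64850601-64904400, chr11:67373601-67427400, chr11:68573901-68646700, chr11:71722951-71795800 and chr11:107691251-107731100. Those of chromosome 19 were more uniform, from 94.8% to 98.1%, at chr19:1239101-1285100, chr19:2031151-2063200, chr19:4968801-5024400, chr19:6232851-6280500, chr19:8478151-8547350, chr19:14605151-14683300, chr19:39137251-39180200, chr19:39615451-39659250 and chr19:56600951-56655850. Chromosome 16 had 8, from 90.7% to 98.3%, at chr16:685301-746700, chr16:1726651-1774000, chr16:2254251-2324350, chr16:46385251-46454200, chr16:67436601-67516050, chr16:68756001-68815400, chr16:75076301-75163050 and chr16:85005401-85063400, and chromosome 3 had 7, from 92.8% to 99.1%, at chr3:42054451-42124150, chr3:50328151-50397350, chr3:66466451-66551850, chr3:128038451-128106650, chr3:150445351-150492050, chr3:187869851-187949200 and chr3:193814101-193914900. Chromosomes 5, 9, 10 and 20 had 5 each. They lay at chr5:68787101-68834350, chr5:75664201-75732250, chr5:138467701-138563350, chr5:148281251-148361550 and chr5:154079701-154164850, at chr9:130699001-130755000, chr9:130817751-130873750, chr9:134236501-134300250, chr9:140062301-140166150 and chr9:140471601-140526100, at chr10:79235451-79275400, chr10:79345651-79401650, chr10:106014151-106101150, chr10:123751401-123830350 and chr10:126798701-126851100, and at chr20:325501-402550, chr20:25157951-25237900, chr20:30239951-30312250, chr20:45931901-45990800 and chr20:61493201-61572650. Chromosomes 2 and 14 had 4 each, at chr2:92268451-92325250, chr2:132996051-133039050, chr2:235859801-235937650 and chr2:238376601-238435850, and at chr14:70107451-70182150, chr14:74167301-74258000, chr14:91815001-91896450 and chr14:100015501-100072850. Chromosomes 4, 7 and 8 had 3 each, at chr4:6674201-6735100, chr4:37623901-37689250 and chr4:49093001-49178050, at chr7:36297201-36352450, chr7:44612151-44680900 and chr7:73129101-73185550, and at chr8:23374201-23456850, chr8:41434601-41524600 and chr8:134299901-134373900. Single ones lay at chr6:3350901-3421000, chr12:105586001-105630850, chr15:93143151-93200050, chr21:37484851-37583000 and chr22:29685851-29784950.

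The 189 members between 50% and 90% had a median share of 76.6% (quartiles 66.1% and 84.3%). They were most numerous on chromosomes 1, with 31 from 60.3% to 89.9%, 5, with 23 from 52.3% to 89.9%, and 2, with 17 from 56.2% to 87.8%. Chromosomes 4, 6 and 12 had 11 each, chromosome 17 had 10, and every other chromosome but X had from 1 to 9. All 5 members of chromosome 18 belonged to this class, with shares from 52.0% to 83.0%.

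Some members joined a side rich in H3K4me1 to a side poor in it. When each member was split at the middle of its span, the shares of the 2 sides differed by a median of 8.36 percentage points over all members, 15.01 points in low members, 13.4 in the middle class and 4.06 in high members. A difference of over 30 points was seen in 28 members, 5 of the 36 low and 23 of the 189 of the middle class. A share over 90% leaves little room for such a difference, so the values of the high members are limited by how the class is cut. The largest, 65.5 points, was in chr15:93421601-93481950, where the side of lower positions had 25.6% and the other 91.1%. In rank 272 the sides had 7.56% and 68.7%, and in chr2:211018001-211099550 they had 22.6% and 80.6%. When the spans were cut into 10 equal parts, the pooled share was nearly level, between 75.1% and 78.5% in each, so over all members neither end was favoured.

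Within the members, H3K4me1 covered less of the narrow H3K27ac regions than of the wide ones. Regions under 1 kb made up 21.98% of the members' regions but 4.85% of their length, and 47.2% of that length lay in H3K4me1 regions. The share rose to 68.2% for regions of 1 to 2 kb, 80.5% for 2 to 4 kb and 81.6% for 4 to 10 kb, and was 77.0% for regions of 10 kb or more. A wider region can meet an H3K4me1 region more easily by chance, which bears on the following count of regions that met none. Of the 4313 regions, 654 (15.2%) met no H3K4me1 region at all, against 16.9% of all H3K27ac regions, and 147 members had no such region. At each width the classes kept their order, which the cut on the share of these same regions largely sets. In regions of 10 kb or more the share was 35.9% in low, 78.3% in middle and 97.3% in high members, and in regions under 1 kb it was 10.97%, 44.2% and 80.4%.

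In the wider regions H3K4me1 was more frequent in the middle than at the ends. In the 1017 member regions of at least 4 kb, H3K4me1 covered 82.4% of the central 1 kb, 75.1% of the outer 1 kb at both ends and 53.9% of the 1 kb just outside. Low members showed the same order at lower values, 40.2%, 32.1% and 18.0% over 114 regions. High members had 96.3%, 94.9% and 74.9% over 359 regions. Inside the regions, the level of each class is largely set by the share on which the classes were cut.

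Neighbouring members tended to have similar shares. The 355 members formed 283 loci, of which 57 held several members and 129 members in all, and none held both a low and a high member. In the 72 pairs of consecutive members of a locus the shares differed by a median of 7.44 percentage points (quartiles 3.54 and 16.6), against 16.1 points over all pairs of members. Such pairs share chromosome, surroundings and libraries. At chr9:139916401-140615550, the locus with the second most members, 3 of 4 were high, the fourth had 87.4%, and the pooled share was 95.1%. The largest step between neighbours was on chromosome 11, from chr11:94798901-94855250 with 73.5% to rank 39 with 26.1%, with 20.45 kb between them. The next, 43.6 points, separated chr15:93143151-93200050 with 97.8% from rank 100 with 54.2%, 222 kb apart.

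Every chromosome had at least 1 member, and the low and high members were spread differently over them. Chromosome 1 had the most, 53, followed by chromosome 5 with 32 and chromosome 17 with 26. Relative to the number of clusters, chromosome Y had 3.49 members per 100 clusters, chromosome 17 had 2.03 and chromosome X 0.166. Chromosome 3, with 21 of the 355 members and 2668 of the 37027 clusters, had 8 of the 36 low members. Of these 8, 5 lay in 1 locus and 2 in another, so they are not independent. The 10 chromosomes without a low member, 6, 8, 9, 10, 16, 17, 18, 19, 20 and 22, together had 118 members, of which 64 were high. On chromosome 19, 12 of 14 members were high and the lowest share was 86.5%. Chromosome 9 was alike, with 7 of 10 high and a lowest share of 79.6%. The members followed their chromosomes in this. Chromosomes X and Y had fewer than 5 members and were left out of the comparison that follows. Over the 22 chromosomes with at least 5 members, Spearman's rho between the pooled share of the members and that of all other H3K27ac was 0.83, with both marks' libraries shared by all points. Exceptions were chromosome 9, where the members had 93.6% and other H3K27ac 73.2%, and chromosome 4, with 76.3% and 56.7%. The number of copies of each chromosome in LNCaP was not corrected for, and its part in these values was not tested.

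**Figure D5:**
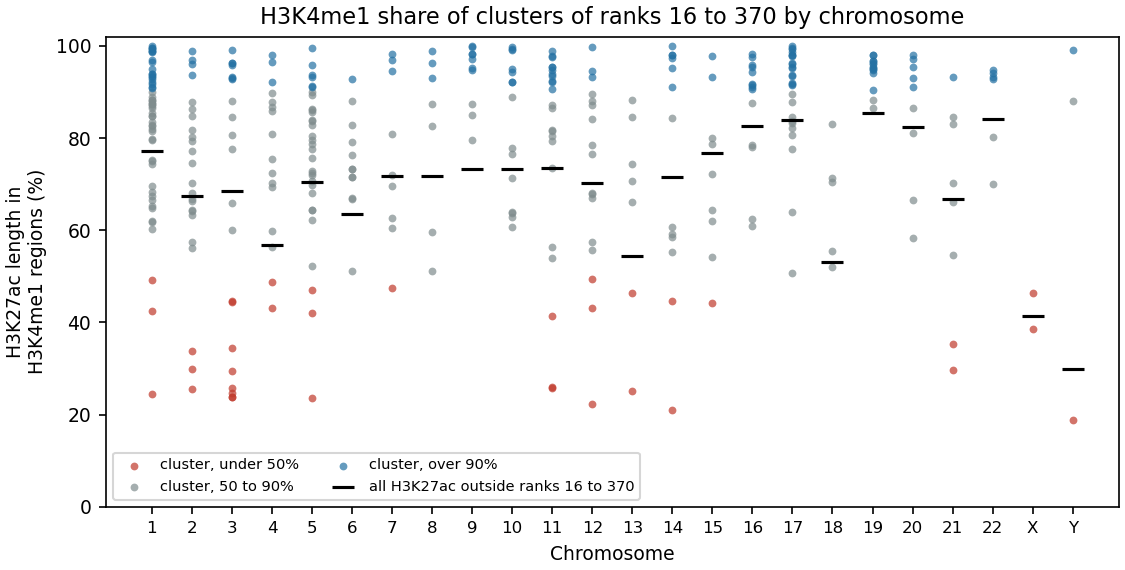
Points are the clusters of ranks 16 to 370 by chromosome (x axis) and percentage of the H3K27ac length in H3K4me1 regions (y axis), coloured by class, and black bars give the pooled percentage of all other H3K27ac of the chromosome. No point of chromosome 17 or 19 lies under 50%, while both clusters of chromosome X do, where the black bar lies at 41.5%.

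A small set of members lay beside long stretches without any called region of either mark. There were 35 such stretches of 1 Mb or more, and 10 members lay within 500 kb of 1, a distance chosen after the data were seen. None of the 10 was low, and 5 were high. Directly at the edge of a stretch lay rank 78 with a share of 99.4%, rank 92, chr16:46385251-46454200, with 91.1%, and rank 270, chr2:92268451-92325250, with 96.9%. Ranks 78 and 270 were the 2 high members with less than 10% of the gaps in H3K4me1, 8.88% and 2.56%, so both marks stopped at nearly the same places. In rank 270, 7 of the 10 H3K27ac regions had both ends within 200 bp of those of 1 H3K4me1 region, in rank 78 it was 5 of 9 and in rank 92 it was 5 of 16. Over the 10 members 15.6% of H3K27ac regions matched in this way, against 3.0% over the other 345 members, of which 1 reached 30% of its regions. The other 7 were chr21:10697851-10774050 with 66.1%, chr21:11034851-11152000 with 54.7%, chr4:49093001-49178050 with 98.0%, chrY:58972351-59028050 with 88.0%, chrY:13447801-13490650 with 99.1%, chr20:29582601-29653950 with 66.6% and chr2:91750301-91819700 with 87.8%. Of the 3 members of chromosome Y, the middle and the high one were in this set and the low one was not. Without the 10 members the count was 36 low and 125 high of 345. Whether the alignment of reads from repeated sequence plays a part there was not tested.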

How the data were processed

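Chromatin immunoprecipitation of H3K27ac and H3K4me1 in LNCaP cells gave 1 list of called regions per mark, with a chromosome, start, end and score per region. The authors deposited the score without a name, a column whose unit is not stated, and it was used only to filter or describe regions within a list. Per the submitters' processing notes, Bowtie 0.12.8 and the build hg19 were used. The region caller, its threshold and the use of the input, which set the number and width of regions, belong to the steps not given in the sources used here. No list gives read counts, and the depth behind them is unknown.

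Starts were read as 0-based. The mitochondrial region of each list was left out. Regions of H3K27ac separated by 12.5 kb or less were joined, and clusters ranked by summed region width, with ties by chromosome and start. H3K4me1 length was measured on the H3K27ac regions, between them, and in 50 kb on either side. Joining and overlap were tested on simulated data, where 400 of 400 clusters were recovered in each of 3 runs. The members and the rules for naming them were chosen with earlier results of these data known. Named by position were the first 10 and last 5 ranks, all members under 50%, the 15 highest and, of the others over 90%, the 15 largest, and the 3 extremes of number of regions, span, covered share, widest region and difference between sides. The positions of the further members over 90%, and of neighbours of named members, were added to these. The computations ran in Python 3.11.15 (pandas 2.3.3, numpy 2.4.6, scipy 1.17.1), and figures were drawn with matplotlib 3.10.9.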

Additional observations from a re-analysis of the deposited data

How the results depend on the processing

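Of 88 alternative values, 61 stayed within the bounds of the main value and 27 left them. Part of the 61 could not move. Settings that change only the H3K4me1 regions leave span, number of regions and covered share as they are. Grouping members into loci leaves both pooled shares as they are. Bounds were 1.5-fold for counts of members and the exact 95% binomial interval of the median for medians. For pooled shares they were a 95% binomial interval with the number of regions or gaps as trials. A pooled share is a share of length and not a count of regions, so these last bounds are only a yardstick. No value can change sign. The number of high members, 130, ran from 108 to 174, within its bounds, the 108 being of 283 loci and not of 355 members. The number of low members, 36, ran from 24 to 56. The value of 56 came with H3K4me1 regions scored at or below the list median, a setting that only removes H3K4me1 and can lower but not raise a share. With that setting the median H3K4me1 share was 80.81%, the pooled share 72.78% and the pooled gap share 26.12%, where the main values were 84.3%, 76.82% and 33.46%. H3K27ac regions scored at or below the median gave a median share of 89.57%, a pooled share of 80.99%, a gap share of 37.83%, a span of 52.55 kb, 6 regions and a covered share of 57.41%, against the main 72.0 kb, 11 regions and 50.5%. Merging H3K4me1 regions within 1 kb gave 89.79%, 81.06% and 38.13% for the 3 shares, and 25 of the 36 low members remained low. H3K4me1 scores below 0.05 gave a gap share of 30.84%. Joining at 5 kb gave a span of 33.2 kb, 6 regions, 77.04% covered and a gap share of 46.41%, and joining at 25 kb gave 160.85 kb, 18 regions, 32.61%, a gap share of 25.4% and a pooled share of 78.19%. Span, number of regions and covered share follow from the joining distance itself, and for the H3K4me1 shares the part of the changed membership was not tested. Ranking by span gave 77.05 kb, 40.72% covered and a gap share of 30.67%. Taking members within 500 kb as 1 locus, added after the data were seen, gave a summed span of 80.8 kb. Of the 355 members, 218 (61.4%) overlapped a cluster of these ranks when joining at 5 kb, 245 (69.0%) at 25 kb, 251 (70.7%) with low H3K27ac scores and 237 (66.8%) when ranked by span. No paired analysis was possible because the 2 marks were each measured in 1 library.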
